A study of Mus musculus with 12 samples.

Results

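C-type lectin receptors are surface proteins with which phagocytes and dendritic cells bind sugars and lipids of microbes and of damaged or shed host material. The genes described are the 10 named Clec4e, Clec4d, Clec4n, Clec7a, Clec5a, Clec4a2, Clec4b1, Clec10a, Mgl2 and Mrc1, and each was taken from the probes whose RefSeq accession belongs to it, with the probe of highest mean intensity where a gene had several. Of these, 9 genes were matched, through 13 probes, and all 9 passed the filter on dim probes, among 11095 genes tested and 16358 with a probe. A gene with a probe is here a gene matched to a probe through its RefSeq accession. Clec7a, which encodes Dectin-1, the beta-glucan receptor, was not matched and is not analysed here.

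Cells from femur and tibia marrow of mice, cleared of B and T cells with antibodies and magnetic beads, had been grown into bone marrow-derived dendritic cells over 5 days in 10 ng/ml of the growth factor GM-CSF plus 5 ng/ml of IL-4. All 12 samples share this culture, and no strain, sex, age or genotype is given in the labels used here. The 4 groups, of 3 arrays each, were unstimulated cells (0 h) and cells given lipopolysaccharide (LPS, from the outer membrane of Gram-negative bacteria) at 100 ng/ml for 1, 6 and 24 h. Samples are called by the letters A, B and C that the labels give as donors, without saying if each letter marks 1 animal throughout. No sort of the cells before RNA extraction is named, and time in culture cannot be told apart from LPS, since the unstimulated cells are those of 0 h alone. Every array carried the sample in Cy5 and 1 pooled mouse reference RNA in Cy3, so a level is a log2 ratio of sample to reference, and levels of different genes cannot be set against each other.

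The receptors fall into kinds by how they signal. Clec4e (Mincle), Clec4d (MCL), Clec4n (Dectin-2) and Clec4b1 (DCAR) are known as activating receptors that pair with the Fc receptor gamma chain Fcer1g, and Clec5a (MDL-1) pairs with the adaptor Tyrobp (DAP12), after which the kinase Syk and the Card9, Bcl10 and Malt1 complex carry the signal. Clec4a2 (DCIR) is an inhibitory receptor that recruits phosphatases, and Clec10a (MGL1), Mgl2 (CD301b) and Mrc1 (the mannose receptor, CD206) are known for endocytosis of glycosylated cargo and as genes raised by IL-4.

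In the sample channel 48.1 to 57.6% of an array's probes stood well above background, no spot was saturated, and the 3 arrays of a group correlated at r of 0.95 to 0.98 across genes. Of 12 dendritic cell markers 10 or 11 were well above background on all 3 arrays of each group, and Cd209a was on none. Of 12 neutrophil markers 8 were above background on all 3 unstimulated arrays and 7 at 24 h, and their mean log2 ratio was 0.99 to 1.43 at 24 h, against 1.89 to 2.24 in unstimulated cells. Their summed signal was 2813 to 15277 units at 24 h, against 48964 to 73574 units in unstimulated cells, with Camp, Elane, Mmp8 and Retnlg above background on no 24 h array and Csf3r, Elane and Retnlg on no unstimulated one. Of 12 macrophage and monocyte markers 9 had a probe, and their mean was 2.48 to 2.54 at 24 h, against 1.91 to 2.02 in unstimulated cells, with a summed signal of 168774 to 205622 units, against 177118 to 259196 units. Of 9 mast cell and basophil markers 8 had a probe, 2 of them above background on all 3 arrays at 24 h and 5 in unstimulated cells, and Mcpt8 was above it on no array of either group. Their summed signal was 7338 to 13143 units at 24 h, against 315 to 372 units in unstimulated cells. The mean log2 ratio of these markers was 0.65 to 0.73 at 24 h, against 0.22 to 0.28, and a sum weighs the brightest markers most. Of 5 plasmacytoid dendritic cell markers 4 were above background on all 3 arrays of both groups and Siglech on none, and the summed signal was 45649 to 61020 units at 24 h, against 10760 to 12478 units. As a mean log2 ratio they stood at -0.21 to 0.014 at 24 h, against -0.72 to -0.45 in unstimulated cells. Of 6 B cell markers 2 were above background on all 3 arrays in unstimulated cells and at 24 h. The same held for 3 of 5 T cell markers with a probe. In unstimulated cells the summed signal was 325.5 to 608 units for the B cell and 221.5 to 342.5 units for the T cell markers. None of 6 natural killer cell markers was above background on all 3 arrays of any group. Some markers were higher after 1 h of LPS, Hdc of the mast cell list by 1.33 (limma adjusted p = 0.00832) and Cd14 of the macrophage list by 3.35 (adjusted p = 1.88e-05). The other tested markers of both lists did not pass at 1 h. A higher sum or mean is thus no count of cells. Neutrophils and monocytes express several of the activating lectins, and the part of any of these cells in the lectin values was not tested. In these unsorted cultures a change in the number of cells of a type and a change in RNA per cell cannot be told apart.

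The data show a split among the lectins. Clec4e rose 21.0-fold within 1 h of LPS and was 30.1-fold higher at 24 h than in unstimulated cells, and Clec4d followed with a 4.62-fold rise at 24 h. Clec4b1, Mrc1, Clec10a, Clec5a, Mgl2 and Clec4a2 fell by 24 h, by 12.8-fold for Clec4b1. The 24 h signal of Mrc1 was well above background on 2 of 3 arrays. Clec5a and Mrc1 had first risen, by 2.31-fold and 2.33-fold at 1 h. Clec4n was 1.62-fold higher at 1 h and did not pass the test at 6 h or 24 h. With the array slide as a block in the fit, the rises of Clec5a, Mrc1 and Clec4n at 1 h and of Clec4d at 24 h and the fall of Clec4a2 did not pass (adjusted p = 0.33, 0.467, 0.498, 0.0567 and 0.0877 in that order). With the processed signals of the scanner software the 24 h falls of Clec10a and Clec4a2 did not pass (limma adjusted p = 0.0703 and 0.32 in that order).

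**Figure D1:**
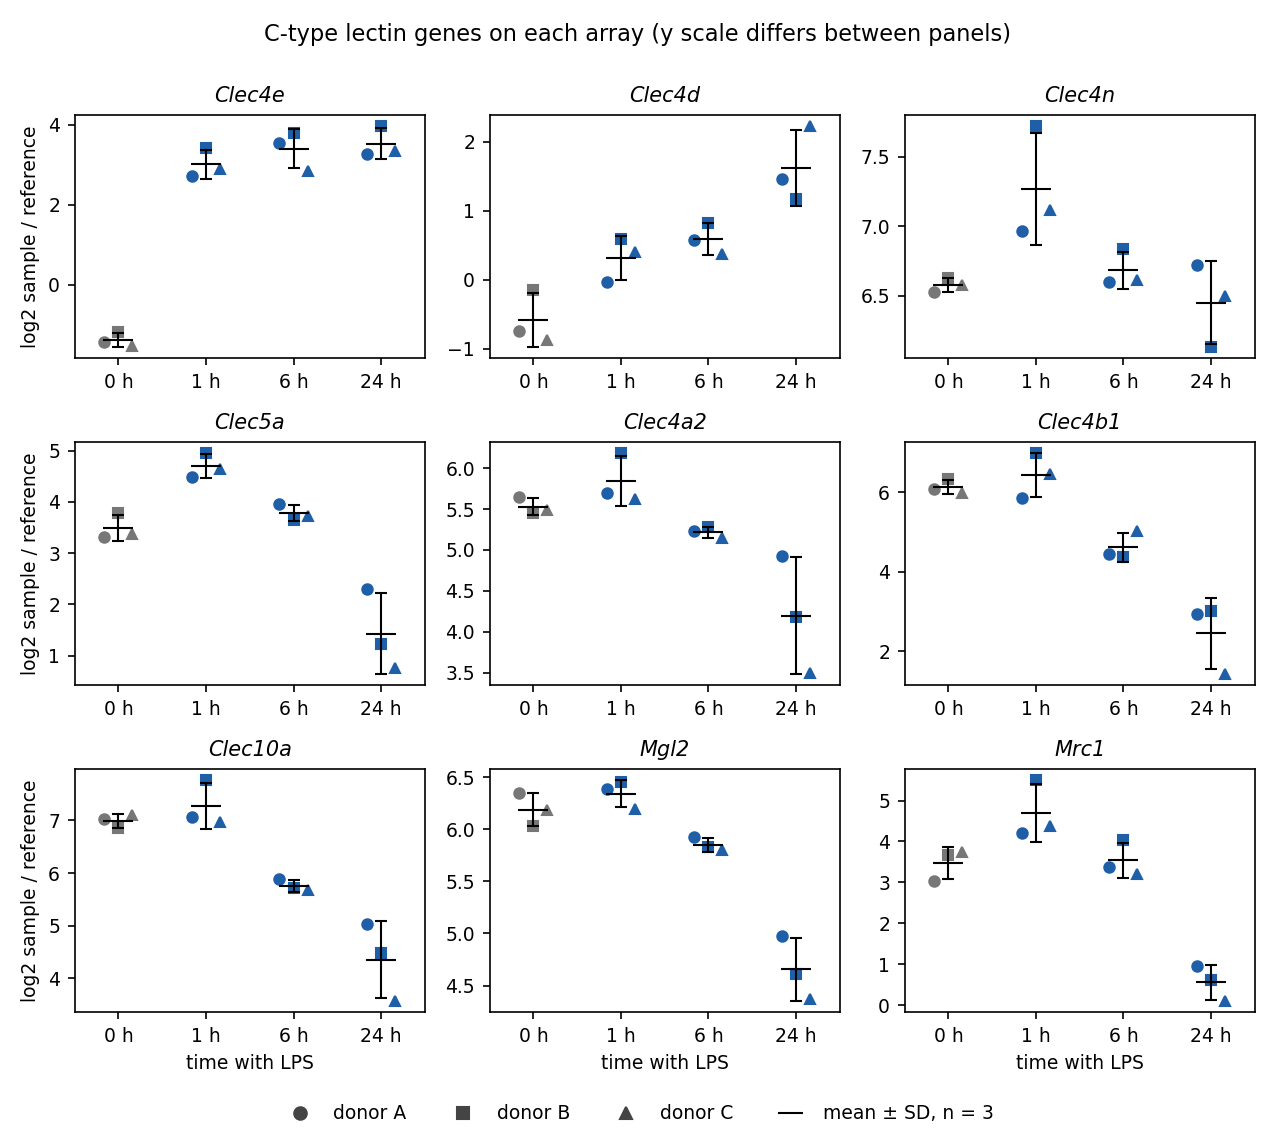
Log2 ratio of sample to reference (y axis, with a scale of its own in each panel) of the 9 lectin genes by hours with LPS (x axis), with 1 symbol per array by donor letter and bars for the mean ± SD of 3 arrays. Clec4e lies between -1.54 and -1.18 in unstimulated cells and above 2.7 on every LPS array, while Clec4b1, Clec10a, Mgl2, Clec5a and Mrc1 have their lowest arrays at 24 h.

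The promoters of 4 genes are shown because they mark the ends of this split, Clec4e and Clec4d as the genes higher at 24 h and Clec4b1 and Mrc1 as those whose ratio fell most. Each runs 5′ to 3′ on the gene's own strand from 250 bases before to 50 after the RefSeq start (GRCm38.p6), and capitals mark matches, on either strand, to the motifs named after them. Clec4e lies at chr6:123289822-123290121 on the minus strand, and on the plus strand lie Clec4d at chr6:123261857-123262156, Clec4b1 at chr6:123049712-123050011 and Mrc1 at chr2:14229164-14229463.
Clec4e: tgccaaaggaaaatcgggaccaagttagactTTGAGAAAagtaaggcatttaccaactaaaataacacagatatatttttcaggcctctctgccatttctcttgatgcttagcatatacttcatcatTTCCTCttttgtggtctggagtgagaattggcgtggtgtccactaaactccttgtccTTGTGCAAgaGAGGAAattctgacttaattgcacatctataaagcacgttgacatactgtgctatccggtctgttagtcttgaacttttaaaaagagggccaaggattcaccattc
Clec4d: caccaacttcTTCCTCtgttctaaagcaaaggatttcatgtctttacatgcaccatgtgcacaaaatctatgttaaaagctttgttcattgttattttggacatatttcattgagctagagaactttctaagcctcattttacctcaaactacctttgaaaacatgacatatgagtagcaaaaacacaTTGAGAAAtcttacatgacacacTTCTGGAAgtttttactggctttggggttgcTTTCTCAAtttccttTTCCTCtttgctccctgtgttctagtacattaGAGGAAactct
Clec4b1: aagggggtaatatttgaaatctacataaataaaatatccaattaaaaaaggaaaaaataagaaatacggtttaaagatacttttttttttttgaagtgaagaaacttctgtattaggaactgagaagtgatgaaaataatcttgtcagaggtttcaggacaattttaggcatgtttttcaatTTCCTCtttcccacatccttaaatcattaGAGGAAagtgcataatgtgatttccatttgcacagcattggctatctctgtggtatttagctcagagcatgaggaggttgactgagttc
Mrc1: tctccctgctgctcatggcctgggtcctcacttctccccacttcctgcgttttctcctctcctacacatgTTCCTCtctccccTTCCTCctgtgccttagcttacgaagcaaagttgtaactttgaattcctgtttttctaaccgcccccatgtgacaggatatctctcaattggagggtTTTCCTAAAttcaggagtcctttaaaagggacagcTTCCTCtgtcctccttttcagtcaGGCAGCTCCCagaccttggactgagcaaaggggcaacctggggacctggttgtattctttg

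Patterns searched were those of NF-kB (GGG, any 5 bases, CC), C/EBP (TTNNG, any base, AA), AP-1 (TGANTCA), STAT (TTC, any 4 bases, GAA) and the PU.1 core of ETS factors (GAGGAA), with N for any base. The Clec4e window held 2 C/EBP matches, at bases -219 and -66 from the start, and 2 ETS matches, at -123 and -56. Clec4d held 3 C/EBP matches, at -62, -39 and -8, and 3 ETS matches. Clec4b1 held 2 ETS matches, at -68 and -39, and none of the other patterns. Mrc1 held 3 ETS matches, 2 C/EBP matches that overlap each other at -70 and -69, and 1 NF-kB match at -11. Among all 32851 promoters of the same length, 50.8% held the NF-kB pattern, 40.7% C/EBP, 28.3% ETS, 7.81% AP-1 and 6.95% STAT, so matches are common and describe letters only. RefSeq promoters were at hand for 8 of the 10 genes, the others being Clec4n and Clec10a.

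Clec4e encodes Mincle, the receptor for mycobacterial cord factor. On the arrays of donors A, B and C its log2 ratios were -1.42, -1.18 and -1.54 in unstimulated cells, 2.73, 3.42 and 2.88 at 1 h, 3.54, 3.80 and 2.85 at 6 h, and 3.26, 3.97 and 3.35 at 24 h. All 9 LPS arrays lay above all unstimulated arrays, and the LPS groups overlapped one another. The log2 change against unstimulated cells was 4.39 at 1 h (SE 0.26, limma adjusted p = 4.9e-07), 4.78 at 6 h (adjusted p = 6.51e-08) and 4.91 at 24 h (adjusted p = 9.03e-08). Clec4e held rank 10, 14 and 11 among the rises of all 11095 genes at 1, 6 and 24 h. It passed the test in all 26 alternatives with a test, in each of the 3 comparisons. Between 1 h and 6 h it differed by 0.39 (adjusted p = 0.306), which became 0.58 with the slide as a block (adjusted p = 0.0462), and between 6 h and 24 h by 0.13 (adjusted p = 0.773).

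Clec4d encodes MCL, which forms a complex with Mincle. On the same arrays it stood at -0.75, -0.14 and -0.87 in unstimulated cells, -0.035, 0.59 and 0.40 at 1 h, 0.58, 0.83 and 0.37 at 6 h, and 1.46, 1.17 and 2.23 at 24 h. Every LPS array was above every unstimulated array, and the 24 h arrays were above all others. The change was 0.90 at 1 h (SE 0.27, limma adjusted p = 0.0611), 1.18 at 6 h (adjusted p = 0.00372) and 2.21 at 24 h (adjusted p = 5.28e-05). From 6 h on it rose again, with 24 h above 6 h by 1.03 (adjusted p = 0.0196), or by 1.11 with the slide as a block (adjusted p = 0.0675). No unstimulated array shared a slide with a 6 h or 24 h array, and with the slide as a block the change was 0.50 at 6 h (adjusted p = 0.555) and 1.61 at 24 h (adjusted p = 0.0567), so neither passed.

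Clec4n encodes Dectin-2, a receptor for fungal mannans. Its log2 ratios, high throughout, were 6.53, 6.63 and 6.58 in unstimulated cells, 6.97, 7.72 and 7.12 at 1 h, 6.60, 6.84 and 6.61 at 6 h, and 6.72, 6.13 and 6.50 at 24 h. The 1 h arrays were above the unstimulated ones, and the 6 h and 24 h groups overlapped with them. The change of 0.69 at 1 h (SE 0.19, limma adjusted p = 0.0471) became 0.39 with the slide as a block (adjusted p = 0.498) and -0.086 after scaling the arrays to 1 spread (adjusted p = 0.900), and it passed in 8 of 26 alternatives. At 24 h the difference was -0.13 (95% interval -0.54 to 0.29, adjusted p = 0.628).

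Clec5a encodes MDL-1, which is known to bind dengue virus. Its log2 ratios were 3.32, 3.78 and 3.37 in unstimulated cells, 4.50, 4.96 and 4.65 at 1 h, 3.95, 3.65 and 3.73 at 6 h, and 2.31, 1.22 and 0.76 at 24 h. The 1 h arrays were the highest and the 24 h arrays the lowest, with no overlap of either with another group, while 6 h overlapped with unstimulated cells. The change was 1.21 at 1 h (SE 0.30, limma adjusted p = 0.0298), 0.29 at 6 h (adjusted p = 0.498) and -2.06 at 24 h (adjusted p = 0.000184). Adding the slide as a block gave 1.00 at 1 h (adjusted p = 0.33) and -2.46 at 24 h (adjusted p = 0.0257). Of its 2 other probes, the brighter gave -1.47 at 24 h (adjusted p = 0.000123) and the dimmer, above background on 6 of 12 arrays, gave -0.36. At 1 h the brighter gave 0.57 (adjusted p = 0.101) and the dimmer 0.44 (adjusted p = 0.0569), so neither passed there. For the probe used, the rise at 1 h passed in 14 of 26 alternatives.

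Clec4b1 encodes DCAR, for which mycobacterial phosphatidylinositol mannosides are a known ligand. Its log2 ratios were 6.07, 6.32 and 5.99 in unstimulated cells, 5.86, 6.97 and 6.46 at 1 h, 4.45, 4.36 and 5.02 at 6 h, and 2.92, 3.01 and 1.42 at 24 h. The 3 arrays at 6 h were below all those of the earlier groups, and the 3 at 24 h were below those at 6 h. The sample signal above background was 450.5, 396.5 and 132 intensity units at 24 h, against 5142, 9097 and 5960 units in unstimulated cells. The change was -1.52 at 6 h (SE 0.38, limma adjusted p = 0.00634) and -3.68 at 24 h (adjusted p = 1.68e-05), rank 3 among the falls of all 11095 genes. The falls were -2.04 (adjusted p = 0.0394) and -4.61 (adjusted p = 0.00146) with the slide as a block. The scanner software's own processed signals gave 0.20 at 6 h (adjusted p = 0.779) and -2.06 at 24 h (adjusted p = 0.00728), so the direction at 6 h turned. The reference signal of this probe was well above background on 5 of 12 arrays.

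Clec4a2 encodes DCIR, the inhibitory receptor. Its log2 ratios were 5.65, 5.45 and 5.49 in unstimulated cells, 5.70, 6.19 and 5.62 at 1 h, 5.23, 5.28 and 5.15 at 6 h, and 4.93, 4.18 and 3.49 at 24 h. The 24 h arrays were below all others, and donor C was the lowest, as for Clec5a, Clec4b1, Clec10a, Mgl2 and Mrc1. For Clec4d the 24 h array of donor C was the highest. The change at 24 h was -1.33 (SE 0.27, limma adjusted p = 0.00196), or -1.56 with the slide as a block (adjusted p = 0.0877). A second probe, above background on all 12 arrays, gave -2.17 (adjusted p = 0.000108), and the dimmest was above background on 0 arrays. The scanner software's processed signals gave -0.26 (adjusted p = 0.32).

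Clec10a and Mgl2 are neighbouring paralogues known to bind galactose and N-acetylgalactosamine. Clec10a had log2 ratios of 7.02, 6.85 and 7.11 in unstimulated cells, 7.06, 7.77 and 6.98 at 1 h, 5.89, 5.71 and 5.67 at 6 h, and 5.03, 4.47 and 3.57 at 24 h. Mgl2 had 6.35, 6.03 and 6.18 in unstimulated cells, 6.38, 6.45 and 6.19 at 1 h, 5.92, 5.83 and 5.80 at 6 h, and 4.98, 4.61 and 4.37 at 24 h. For both genes the 6 h arrays lay below the unstimulated ones and the 24 h arrays below those at 6 h. Clec10a fell by 1.24 at 6 h (SE 0.30, limma adjusted p = 0.00531) and by 2.64 at 24 h (adjusted p = 3.25e-05). With the slide as a block these were -1.33 (adjusted p = 0.134) and -2.93 (adjusted p = 0.00966), and with the scanner's processed signals -0.18 (adjusted p = 0.708) and -0.81 (adjusted p = 0.0703). The change of Mgl2 was -0.34 at 6 h (SE 0.15, adjusted p = 0.0984) and -1.53 at 24 h (adjusted p = 1.29e-05), the last -0.81 with processed signals (adjusted p = 0.00154).

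Mrc1 encodes the mannose receptor. Its log2 ratios were 3.02, 3.67 and 3.73 in unstimulated cells, 4.21, 5.51 and 4.37 at 1 h, 3.38, 4.03 and 3.19 at 6 h, and 0.96, 0.61 and 0.10 at 24 h. The 1 h arrays were the highest, those at 6 h overlapped with unstimulated cells, and the 24 h arrays were far below all others. The sample signal was 73.5, 40 and 19 units above background at 24 h, the last not well above background, against 480, 979.5 and 918 units in unstimulated cells. The change was 1.22 at 1 h (SE 0.34, limma adjusted p = 0.0496), 0.06 at 6 h (adjusted p = 0.917) and -2.92 at 24 h (adjusted p = 4.03e-05). Adding the slide as a block gave 0.73 at 1 h (adjusted p = 0.467) and -3.54 at 24 h (adjusted p = 0.00539), and the scanner's processed signals gave 0.86 (adjusted p = 0.597) and -4.27 (adjusted p = 0.00366). In the alternatives with a test the rise of Mrc1 at 1 h passed in 8 of 25. The reference signal of this probe was well above background on 2 of 12 arrays, so the ratio rests on the sample channel.

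At 1 h, 4 of the 9 genes were called (adjusted p under 0.05), all higher, namely Clec4e, Clec5a, Mrc1 and Clec4n, against 7.44% of all genes (4.05% higher), and 5 of the 9 did not overlap between the groups, against 30.7% of all genes. That count was 1, Clec4e, with the slide as a block, which at 1 h compares 1 LPS array with 3 unstimulated ones. It was also 1 without any single unstimulated array or without the 1 h array of donor B, and 2 without the 6 h array of donor A. At 6 h, 4 of the 9 were called, Clec4e and Clec4d higher and Clec4b1 and Clec10a lower, against 39.6% of all genes (16.1% higher and 23.6% lower), a share near that of the lectins. The groups did not overlap for 6 of the 9, against 53.9% of all genes. Clec4e and Clec4b1, 2 of these, were called with the slide as a block. At 24 h, 8 of the 9 were called, Clec4e and Clec4d higher and 6 lower, against 39.4% of all genes (17.9% higher and 21.4% lower), and 8 did not overlap, against 52.3%. The median log2 change of the 9 genes at 24 h was -1.53, beside 0.02 over all genes tested. Of these, 6 were called with the slide as a block, all but Clec4d and Clec4a2. The 3 comparisons share the unstimulated arrays.

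**Figure D2:**
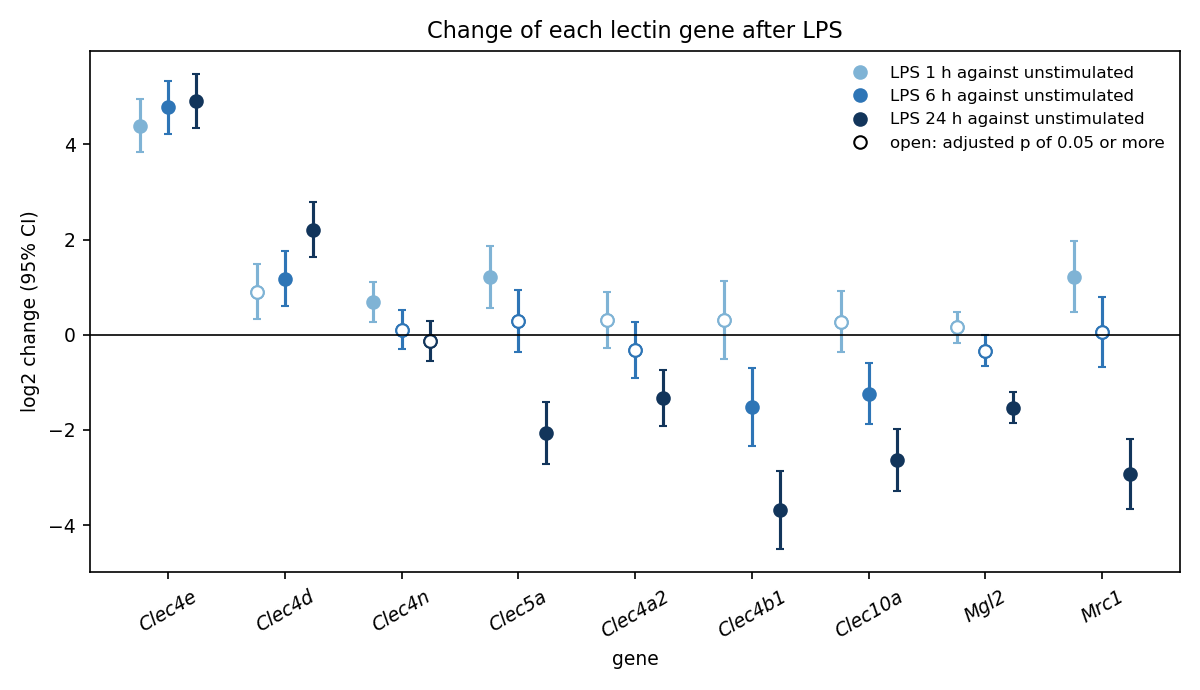
Log2 change against unstimulated cells (y axis, limma estimate with its 95% interval) of the 9 lectin genes (x axis) at 1, 6 and 24 h with LPS, with open symbols where the adjusted p was 0.05 or more. Clec4e lies above 4 at all 3 times, and 6 genes lie below -1 at 24 h.

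Between the LPS times most lectins other than Clec4e and Clec4d were lower at the later time. From 1 h to 6 h, 6 of the 9 were called, all lower at 6 h, against 28.2% of all genes (16.2% lower). Clec4b1 differed by -1.82, Clec10a by -1.51, Mrc1 by -1.16, Clec5a by -0.92, Clec4n by -0.59 and Mgl2 by -0.49. With the slide as a block Clec4b1, Clec10a and Clec4n were called lower and Clec4e higher, and with the scanner's processed signals 0 of the 9 were called and Clec4b1 was at 0.28 (adjusted p = 0.724). The count of 6 was 2 without the 1 h array of donor B, the 6 h array of donor A or the 6 h array of donor C. From 6 h to 24 h, 7 of the 9 were called, against 18.4% of all genes (9.65% higher and 8.73% lower). Clec4d was higher at 24 h, and lower were Mrc1 by -2.98 (adjusted p = 0.000156), Clec5a by -2.35 (adjusted p = 0.000276), Clec4b1 by -2.16, Clec10a by -1.40, Mgl2 by -1.19 (adjusted p = 0.000266) and Clec4a2 by -1.02. With the slide as a block 5 of these were called, all but Clec4d and Clec4a2.

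Within slides, the difference at 24 h, chained through the 1 h arrays, was 4.66 for Clec4e, 1.14 for Clec4d, -4.23 for Clec4b1, -4.17 for Mrc1 and -3.23 for Clec10a. It was -2.74 for Clec5a, -1.84 for Clec4a2, -1.64 for Mgl2 and -1.21 for Clec4n, and none of these values has a test. Every gene called at 24 h kept its direction within slides, and Clec4d was at 1.14 there, against 2.21 over all arrays.

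In the reference channel some of these genes also changed, although the reference RNA is the same on every array. The Cy3 signal of Clec4a2 was 51, 47 and 26.5 units above background at 24 h, against 150, 213 and 179 units in unstimulated cells. That of Mgl2 was 73, 74 and 51.5 units at 24 h, against 173.5, 198 and 254.5 units, and that of Clec10a 10.5, 19 and 10 units, against 30.5, 33.5 and 43 units. Taken alone, the Cy3 channel fell at 24 h by 1.42 on the log2 scale for Clec4a2 (SE 0.19, limma adjusted p = 0.00782), by 1.24 for Mgl2 (adjusted p = 0.0103) and by 0.58 for Clec10a (adjusted p = 0.00119). Only 37 of all 11095 genes, 0.333%, were called in that channel at 24 h, and 2 genes had a larger fall in it than Clec4a2 and 3 than Mgl2. The Cy5 channel alone gave -3.12 for Clec4a2, -3.19 for Mgl2 and -3.53 for Clec10a at 24 h, against ratio changes of -1.33, -1.53 and -2.64. Mrc1, whose 24 h signal was near background, was at -2.96 in that channel, and the order of these genes was not tested. With processed signals Mrc1 was at -4.27, against -0.26 for Clec4a2, -0.81 for Mgl2 and -0.81 for Clec10a. At 6 h the Cy3 change was -0.40 for Clec10a (adjusted p = 0.0105), where 43 genes, 0.388%, were called, and -0.69 for Clec4a2 (adjusted p = 0.376) and -0.34 for Mgl2 did not pass. The Cy5 channel alone called Clec4a2 (-1.30, adjusted p = 0.0141) and Mgl2 (-0.96, adjusted p = 0.0105) lower at 6 h, where their ratios did not pass. At 24 h the Cy3 changes of Clec4e (-0.10), Clec4d (-0.09), Clec5a (-0.09) and Mrc1 (-0.08) did not pass (adjusted p = 0.701 each). That of Clec4b1 was -0.31 (limma adjusted p = 0.122), which did not pass either, and 54 genes had a larger fall. The Cy3 signal of Clec4b1 was 3, 6.5 and 6.5 units at 24 h, against 8.5, 16.5 and 13 units in unstimulated cells. Its Cy5 channel alone gave -4.18, against a ratio change of -3.68. What made the reference signal fall with the sample signal on the same spots was not tested.

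**Figure D3:**
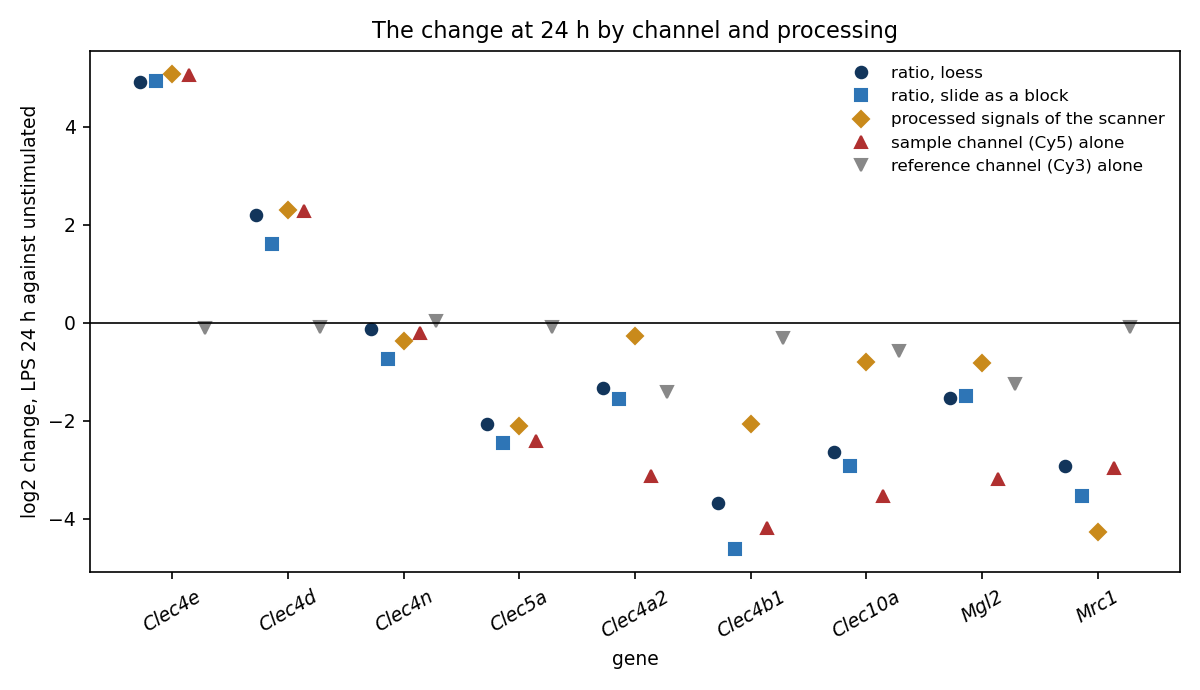
Log2 change at 24 h against unstimulated cells (y axis) of the 9 lectin genes (x axis) from the loess ratio, the ratio with the slide as a block, the scanner software's processed signals, the Cy5 channel alone and the Cy3 channel alone. The Cy3 points lie near 0 for Clec4e, Clec4d, Clec4n, Clec5a and Mrc1. They lie at -1.42 for Clec4a2, -1.24 for Mgl2, -0.58 for Clec10a and -0.31 for Clec4b1, whose ratio changes are smaller than those of Cy5 alone.

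Clec4b1, Clec4a2, Clec4n, Clec4d and Clec4e lie next to each other on chromosome 6, in that order in the RefSeq table, among 8 genes from the first to the last, 6 of them protein coding. Clec4b2 and the pseudogenes Gm22946 and Gm5883, which lie between Clec4a2 and Clec4n, were matched to no probe. Along this order the log2 change at 24 h was -3.68, -1.33, -0.13, 2.21 and 4.91. The values also ascended along the order at 6 h (-1.52, -0.31, 0.11, 1.18 and 4.78) and at 1 h, where Clec4b1 (0.30) and Clec4a2 (0.31) were equal within their errors. The ascent did not hold with the scanner software's processed signals, which gave 0.20 for Clec4b1, 0.011 for Clec4a2 and -0.23 for Clec4n at 6 h, and -0.26 for Clec4a2 and -0.37 for Clec4n at 24 h. With 5 genes this is a description, and no test was made.

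**Figure D4:**
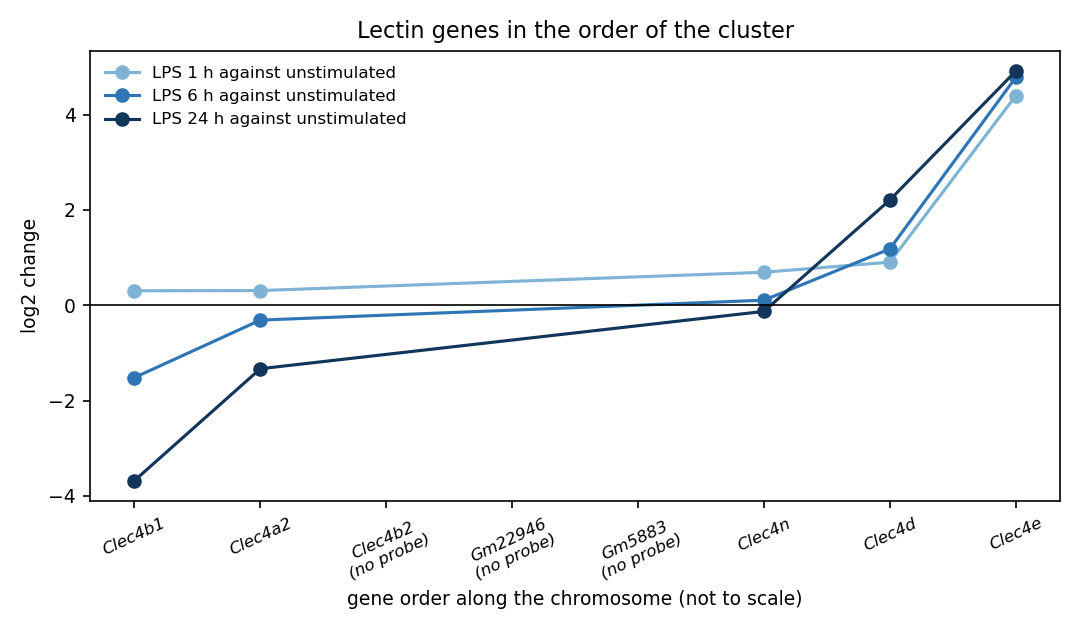
Log2 change against unstimulated cells (y axis) at 1, 6 and 24 h for the lectin genes placed in their order along the cluster (x axis, not to scale), with no point for genes that were matched to no probe. At 24 h the values ascend from -3.68 for Clec4b1 to 4.91 for Clec4e.

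Over the 12 arrays the log2 ratios of Clec5a, Clec4a2, Clec4b1, Clec10a, Mgl2 and Mrc1 correlated with one another at Pearson r of 0.88 to 0.98, highest between Clec4b1 and Clec10a. Clec4e and Clec4d correlated at 0.78, and Clec4d with those 6 genes at -0.60 to -0.82. The arrays share the 4 groups, so these values describe the common time course. The genes with the pattern most like that of Clec4e over the 12 arrays were Inhba (r = 0.993), Il1b (0.990), Tnfaip2 (0.986), Il6 (0.984) and Ier5 (0.982). Those most like Mrc1 were Pid1 (0.975), Hgfac (0.975), Lyz2 (0.969), Mfge8 (0.968) and Ldhb (0.968).

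Of the genes through which these receptors signal, Fcer1g, the gamma chain that pairs with Mincle, MCL, Dectin-2 and DCAR, was higher at all 3 times. Its log2 ratios were 1.61, 1.54 and 1.90 in unstimulated cells, 2.43, 2.18 and 2.12 at 1 h, 2.84, 2.87 and 2.72 at 6 h, and 2.86, 3.16 and 2.87 at 24 h. No LPS array overlapped with the unstimulated ones, and the change was 0.56 at 1 h (SE 0.14, limma adjusted p = 0.028), 1.13 at 6 h and 1.28 at 24 h (adjusted p = 2.21e-05), the last 1.69 with the slide as a block (adjusted p = 0.00182). Tyrobp, the adaptor of MDL-1, was at 3.30, 3.46 and 2.34 at 24 h, against 3.51, 3.65 and 3.66 in unstimulated cells, a change of -0.57 that did not pass (adjusted p = 0.0682). Malt1, the paracaspase of the Card9 complex, rose by 1.58 at 1 h, 1.74 at 6 h and 1.58 at 24 h (adjusted p = 0.00187, 0.000154 and 0.000314 in that order). With the slide as a block neither passed at 1 h (adjusted p = 0.056 for Fcer1g and 0.0582 for Malt1), and both did at 6 h and 24 h. Syk rose at 24 h (0.61, adjusted p = 0.0269) but not with the slide as a block (0.52, adjusted p = 0.355). Bcl10 rose at 6 h (0.45, adjusted p = 0.027), where the block gave an adjusted p of 0.226. Ptpn6, which encodes the phosphatase SHP-1 that DCIR recruits, was at 0.50 at 6 h and -0.13 at 24 h and did not pass, and Card9 was not among the genes tested.

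**Figure D5:**
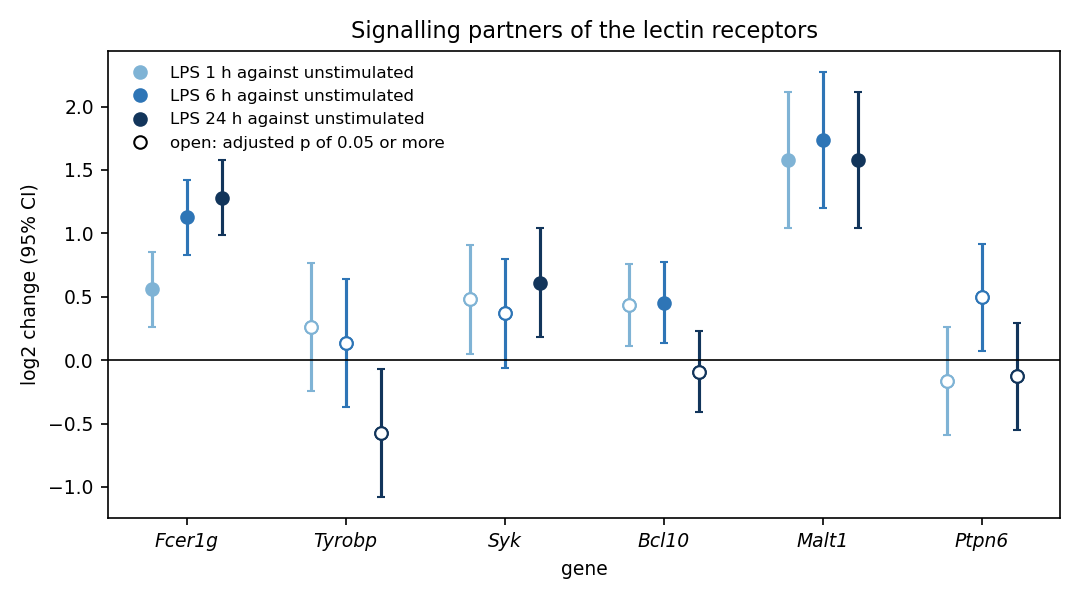
Log2 change against unstimulated cells (y axis, limma estimate with its 95% interval) of 6 signalling partners (x axis) at 1, 6 and 24 h with LPS, with open symbols where the adjusted p was 0.05 or more. Fcer1g and Malt1 are higher at all 3 times, and Tyrobp lies at -0.57 at 24 h without passing the test.

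Of 48 genes listed for lectin receptor signalling 43 were tested, and 4 rose at 1 h, 10 rose and 9 fell at 6 h, and 11 rose and 11 fell at 24 h. Their shares called, 9.30, 44.2 and 51.2%, stand beside 7.44, 39.6 and 39.4% of all genes, and their median change at 24 h was -0.06. Among the genes called, the largest rises were Malt1, Egr2 (1.15) and Fcer1g at 1 h, Malt1, Dok1 (1.73) and the kinase Src (1.41) at 6 h, and Src (1.59), Malt1 and Dok1 (1.47) at 24 h. Their largest called falls were the adaptor Dok2 (-2.03), the lipid phosphatase gene Inpp5d (-1.84) and the adaptor Lat2 (-1.30) at 6 h, and the kinase Fgr (-2.50), Dok2 (-1.82) and the exchange factor Vav3 (-1.05) at 24 h. The count at 1 h was 0 with the slide as a block, 9 with the donor letter as a block, 1 without the unstimulated array of donor A or B or the 1 h array of donor A or B, and 2 without the 6 h array of donor A. At 6 h and 24 h it was 11 and 6 with the slide as a block. Between the LPS times 21 of the 43 were called from 1 h to 6 h (9 higher, 12 lower) and 9 from 6 h to 24 h (2 higher, 7 lower), which is 48.8 and 20.9% beside 28.2 and 18.4% of all genes, the last count 5 without the 24 h array of donor C.

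Of 73 other genes listed as C-type lectins or their relatives 61 had a probe and 19 were tested, and 4 rose and 1 fell at 1 h, 9 rose and 3 fell at 6 h, and 8 rose and 4 fell at 24 h. These shares, 26.3, 63.2 and 63.2%, stand beside 7.44, 39.6 and 39.4% of all genes. The largest called rises at 1 h were Olr1, the lectin-like receptor of oxidised LDL (2.96), the activation marker Cd69 (2.28) and Clec2d (1.21). They included Cd69 (3.13) and Olr1 (2.33) at 6 h, and at 24 h Olr1 (2.87) and Ly75, the endocytic receptor DEC-205 (2.07). Kdr, which encodes a VEGF receptor and no lectin although it stood on the list, was called higher at both times, but its signal was well above background on 0 of 3 unstimulated arrays, so no size is given. Falls included Klrd1 (CD94) at 1 h (-1.12) and 6 h (-1.57), with a signal above background on 2 of 3 arrays at each of these times, and the asialoglycoprotein receptor subunit Asgr2 at 6 h (-0.99) and 24 h (-2.71). Klrd1 was also called lower at 24 h, where its signal was above background on 0 of 3 arrays. It passed the filter on dim probes through the unstimulated group alone, which favours a fall. Kdr passed it through the 6 h and 24 h groups alone, which favours a rise. The counts and shares above include Klrd1 and Kdr. With the slide as a block 2 were called at 1 h and 7 at 6 h, and the count at 1 h was 3 without the unstimulated array of donor A, that at 6 h 7 without the 6 h array of donor A. From 1 h to 6 h 6 of the 19 were called and from 6 h to 24 h 3, or 31.6 and 15.8%, beside 28.2 and 18.4% of all genes.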

How the data were processed

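RNA of 12 cultures, labelled with Cy5, was hybridised beside pooled reference RNA in Cy3, 750 ng of labelled cRNA per sample per the labels. The deposited scanner files (per the file headers from Agilent Feature Extraction 10.7.3.1, protocol GE2_107_Sep09) hold median spot and background intensity without normalization, processed intensity signals, and log10 ratios of those processed signals. The authors' deposited log2 ratio table was made with limma per the submitters' processing notes (version and steps not given in the sources used here), and the values derived here reached r of 0.999 or more with it on each array.

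Computed in R 4.3.3 with limma 3.58.1 and jsonlite 2.0.0: normexp background correction (offset 50, local backgrounds marked as outliers replaced by the array's median, outlier spots left out) and loess (span 0.3, 1639 control spots at weight 0). Of 41174 probes 22951 were given a symbol through the RefSeq accession. Probes well above background in Cy5 on all 3 arrays of at least 1 group were kept, and the brightest per gene used. A model with 1 mean per group (8 residual degrees of freedom) was fitted with empirical Bayes moderation, two-sided, with Benjamini-Hochberg adjustment over 11095 genes and a threshold of 0.05, and was tested on simulated data. The simulated data held independent noise without a slide effect, so they cannot show how slides affect the calls. The number of arrays limits the precision. Lectins, lists and tests were chosen with earlier results of these data known. Named were all members, the partners, up to 3 called genes each way per list and comparison with unstimulated cells, and the 5 genes most correlated with Clec4e and with Mrc1. The values of 1 gene that this rule would name are not reported here.

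Slides (4, from the headers) held the unstimulated arrays with 1 h A, 1 h B with 24 h B, 1 h C with 6 h A and B, and 6 h C with 24 h A and C. Deviations of arrays with the same donor letter correlated at a median r of 0.11 (-0.21 to 0.58, 18 pairs). Arrays of different letters gave -0.013 (-0.53 to 0.41, 36 pairs), so the same letter agreed somewhat more. With the donor letter as a block 1128 genes were called at 1 h, against 825 without it. As the labels do not state that a letter is 1 animal, letters were not taken as pairs in the main fit. Alternatives were the background correction, offset, normalization, filter, probe rule, authors' table, array weights, slide and donor blocks and leaving out each array.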

Additional observations from a re-analysis of the deposited data

How the results depend on the processing

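Across 27 alternatives there were 1210 values of the 9 lectins. Of these 1063 counted as unchanged: they kept their side of the threshold or, within slides, moved by no more than the spread between replicates. Tested values that changed sign without passing in either fit are counted among these. Another 113 no longer passed, 14 newly passed, and 17 of the untested within-slide values moved by more than that spread. The last 3, called in the main fit, turned direction: Clec4b1 with processed signals at 6 h against unstimulated cells (0.20) and against 1 h (0.28), and Clec4n at 1 h with scaled arrays (-0.086). Of 431 values of uncalled comparisons 32 changed sign. Clec4e against unstimulated cells passed in all tested alternatives at all 3 times.

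Counts that moved by more than 1.5 times are given in the order lectins, signalling list, other lectins. At 1 h, where 4, 4 and 5 were called, they were 1, 0 and 3 with every local background as deposited, 1, 2 and 3 with processed signals, 1, 1 and 3 with median centring, and 1, 0 and 2 with the slide as a fixed block. Also at 1 h the lectins numbered 2 with an offset of 16, with the authors' table and with no filter, and 1 with the Cy5 channel alone (signalling 2), with scaled arrays and with the slide as a random block, and the signalling list 8 with array weights. At 6 h the lectins numbered 2 with processed signals and with the slide block, the signalling list 11 with median centring and 11 with the slide block, and other lectins 7 with deposited backgrounds and 7 with the slide block. At 24 h the signalling list numbered 14 with deposited backgrounds, 11 with median centring and 6 with the slide block. From 1 h to 6 h the lectins numbered 3 with deposited backgrounds, median centring and scaled arrays and 0 with processed signals, the signalling list 7 and 10 with deposited backgrounds and median centring, and other lectins 11 with array weights. From 6 h to 24 h deposited backgrounds gave 2, 1 and 0, and the slide block 3 for the signalling list. Median centring moved the median of all genes to -0.12 at 1 h, -0.11 at 24 h, 0.13 from 1 h to 6 h and -0.18 from 6 h to 24 h.

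Leaving out 1 array gave 1 to 4 lectins at 1 h, 4 at 6 h, 8 at 24 h, 2 to 7 from 1 h to 6 h and 5 to 7 from 6 h to 24 h. The signalling list gave 1 to 5, 16 to 25, 15 to 23, 15 to 21 and 5 to 11 in the same order, and other lectins 3 to 5, 7 to 13, 10 to 12, 4 to 8 and 2 to 4.

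With the donor letter as a replicate block no lectin's call changed in the 5 comparisons reported (45 of 45 values), and the signalling list numbered 9 at 1 h. The letters were not taken as pairs. Dim reference signals limit Clec4b1 and Mrc1 most. The causes of these differences were not tested.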
